A study of Mus musculus with 4 samples.

Results

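The liver stores glucose as glycogen and releases it into the blood, and the genes described here carry both tasks. They are G6pc and Slc37a4, which form the glucose-6-phosphatase system, the glucose transporter gene Slc2a2, the gluconeogenic enzyme genes Pcx, Pck1 and Fbp1, the glycolytic enzyme gene Pklr, and the glycogen genes Gys2 and Pygl. The list of 9 genes was chosen for the roles of their products and not by measured values. Of these, 8 were measured, by 9 probes among the 41174 of the array, and all 8 passed the filter on low values into the 25094 genes tested. No probe was named Pck1 through the gene table used here, so this gene, the cytosolic phosphoenolpyruvate carboxykinase, was not analysed here.

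All mice were 8-week-old females of CD-1, an outbred laboratory stock, and all received an siRNA. The groups were livers of mice given Cux2 siRNA and examined on day 5 or on day 8, and livers of mice given a non-specific siRNA. Cux2 encodes a homeobox transcription factor with female-biased expression in mouse liver, and the stated question was which genes change when it is depleted. Each of 4 arrays carried 1 Cux2 siRNA pool beside 1 control pool. The Cux2 siRNA pools held 3 mice (replicate 1) and 2 mice (replicate 2) at day 5, and 2 mice each at day 8. The series text counts 13 control mice in 2 pools of 6 or 7, while 6 is the number in each sample's description. Neither the day on which the control mice were killed nor the pool used for each array is labelled, and the 2 days share their control RNA. In replicate 1 of both days the Cux2 siRNA pool carried Alexa 647 and in replicate 2 Alexa 555, so replicate number and dye orientation coincide. Pools stand in for single animals, so p-values do not measure the spread between animals. The fit treats the 4 ratios as independent. The days share control RNA, however, and differences between replicates correlated at 0.5 between the days. P-values over both days therefore do not measure the spread between independent replicates and can be too small.

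Glucose leaves a liver cell after its last intermediate, glucose 6-phosphate, has been carried into the endoplasmic reticulum by the Slc37a4 product, split there by the enzyme that G6pc encodes, and the freed glucose has crossed the cell membrane, largely through the Slc2a2 product. That intermediate comes from glycogen, which the Pygl enzyme breaks down and the Gys2 enzyme builds, or from gluconeogenesis, which runs from pyruvate through the Pcx, Pck1 and Fbp1 enzymes. The Pklr enzyme closes the opposite route, glycolysis. Fasting hormones, among them glucagon and glucocorticoids, raise G6pc, Pck1 and Pcx in liver, insulin lowers G6pc and Pck1, and glucose together with insulin raises Pklr.

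In a fit with no term for replicate number, G6pc rose and Pcx fell in the livers given Cux2 siRNA. The other 6 measured genes did not pass the test. With such a term 11247 of the 25094 genes tested passed over both days, Gys2, Pklr, Slc2a2 and Pygl among them, as given at the end. A gene passed at an adjusted p under 0.05 in limma, with Benjamini-Hochberg adjustment over all genes tested. At day 5, 1 of the 8 genes rose (G6pc) and 0 fell, where 7.38% of all genes tested rose and 9.42% fell. At day 8 the counts were again 1 rise (G6pc) and 0 falls, where 6.27% of all genes rose and 8.05% fell. Over both days 1 rose (G6pc) and 1 fell (Pcx), where 14.8% of all genes rose and 16.3% fell. The shares among the 8 genes lie near those of all genes, and the median log2 ratio of the 8 genes over both days was -0.04, against 0.0032 for all genes tested. For day 8 minus day 5, 0 of the 8 genes passed and 0 of the 25094 genes tested did (0%). Limma's unadjusted p was under 0.05 for 621 of all genes and for 0 of the 8. That is below the share of 0.05 that would fall there if no gene differed. Differences between replicates that both days share cancel in this contrast but stay in the residual of the fit. The test between days was therefore a weak one, and its lack of calls does not show that the days were alike.

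**Figure D1:**
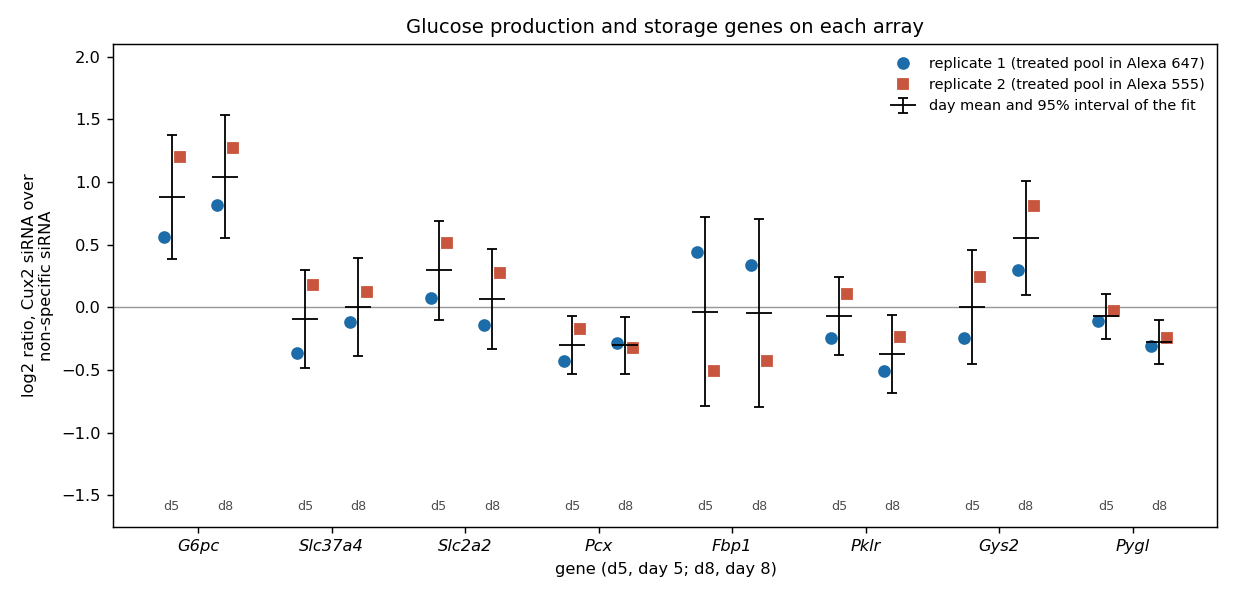
Log2 ratio of Cux2 siRNA over non-specific siRNA for the 8 measured genes on each of the 4 arrays, with day 5 left and day 8 right for each gene. Points are arrays, coloured by replicate and so by dye orientation, and bars are the day means with the 95% interval of the fit. The G6pc points lie above 0 on all 4 arrays, at 0.56 to 1.27, and the Pcx points below 0 on all 4, at -0.43 to -0.17, whereas the Fbp1 points change sign with the dye orientation.

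The measurements that bear on all of these genes were as follows. Cux2 itself was lower on every array, at 28.6% of the control level at day 5 and 45.6% at day 8, so the depletion was partial. Its log2 ratio over both days was -1.47, and -0.96 without background subtraction. Between 71.1% and 74.5% of probes were well above background in a channel, and no spot was saturated. Of 8 hepatocyte marker genes 6 were measured, all 6 above background in every reading. Over both days Ttr fell among them and 5 did not pass. The 6 had summed intensities of 902800 to 1285000 in Cux2 siRNA pools and 784000 to 1289000 in control pools. The median log2 ratio was 0.34 and 0.38 in replicate 1 of day 5 and day 8, and -0.42 and -0.50 in replicate 2. The sign changed with dye orientation, so the 5 genes that did not pass do not show an unchanged level. Macrophage markers fell in 6 of 8, with summed intensities of 30410 to 36690 in Cux2 siRNA pools and 50310 to 55850 in control pools, and all 8 were above background throughout. Exocrine pancreas markers fell in 4 of 9, with sums of 11970 to 42580 in Cux2 siRNA pools and 28240 to 77090 in control pools. Their median log2 ratio was 0.51 on day 8 replicate 1 and between -3.75 and -2.94 on the other arrays. Skeletal muscle markers fell in 3 of 4, with sums of 578.3 to 1703 in Cux2 siRNA pools and 2039 to 5081 in control pools. None of the 3 islet markers measured was above background in every reading, and none passed.

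G6pc encodes the catalytic subunit of glucose-6-phosphatase, the last enzyme of hepatic glucose output, and had the largest log2 ratio of the 8 genes on every array. The 250 bases before its start, on the plus strand of GRCm38.p6 at chr11:101367466-101367715, are shown because G6pc was the gene that rose and because promoter motifs for insulin, cAMP and carbohydrate signals are known from this pathway. The sequence is RefSeq's, in lower case, with any match to a searched motif in capitals.

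G6pc: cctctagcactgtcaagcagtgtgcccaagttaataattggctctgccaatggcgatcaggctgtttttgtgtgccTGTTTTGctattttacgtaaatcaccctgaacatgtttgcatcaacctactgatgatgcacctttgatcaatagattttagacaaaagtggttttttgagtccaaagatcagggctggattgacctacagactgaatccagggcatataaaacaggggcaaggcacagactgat

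The motifs searched, on both strands, were TGTTTTG or TATTTTG (the core of insulin response elements, which FOXO factors bind), CGTCA (a cAMP response element half-site), CACGTG (the E box of carbohydrate response elements), TTCNNNGAA (a STAT5 site), the core of interferon-stimulated response elements and ATCGAT (a site of cut-domain proteins, the family of Cux2). The G6pc window held 1 match, TGTTTTG with its first base at -174, overlapped by no other motif searched. Of all 32851 promoter windows of the same length, 9.14% held that core, 17.8% the cAMP half-site, 6.02% the E box, 7.02% the STAT5 site, 2.98% the interferon core and 0.728% the cut-domain site. A match describes letters only, and binding was not measured.

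At day 5 the normalized intensity of G6pc was 36250 and 45230 in the Cux2 siRNA pools of replicates 1 and 2, against 24510 and 19750 in the control pools of the same arrays. At day 8 it was 44280 and 49290 in the Cux2 siRNA pools, against 25140 and 20460 in the control pools. All 4 Cux2 siRNA readings were above all 4 control readings. Those control readings come from 2 pools, and how many of all genes tested separate in this way was not counted. The log2 ratios were 0.56 and 1.20 at day 5 and 0.82 and 1.27 at day 8. The rise was 0.88 at day 5 (SE 0.19, n = 2 arrays, 1.84-fold, adjusted p = 0.0423, limma) and 1.04 at day 8 (SE 0.19, n = 2 arrays, 2.06-fold, adjusted p = 0.0321, limma). Over both days G6pc rose by 0.96 (SE 0.13, 95% interval 0.61 to 1.31, adjusted p = 0.00859, limma), which is 1.95-fold. Day 8 minus day 5 was 0.16 for G6pc, with an interval from -0.53 to 0.86, so a difference between the days was not resolved. The ratio averaged 0.69 in replicate 1 and 1.23 in replicate 2, and it was positive in both dye orientations.

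The G6pc call over both days held with any 1 array left out (log2 ratios 0.80 to 1.12, highest adjusted p = 0.0325), including without day 8 replicate 1, the array on which pancreas markers stood apart (1.07, adjusted p = 0.0170). It ended with median centring in place of loess (0.97, adjusted p = 0.0799). The single-day calls were less firm. The day 5 call ended without background subtraction (0.93, adjusted p = 0.101), with the scanner's processed signals (0.90, adjusted p = 0.0849), with the authors' deposited log10 ratios (0.90, adjusted p = 0.0852) and with median centring (0.87, adjusted p = 0.353). The day 8 call ended in the same settings, at adjusted p = 0.0866, 0.0727, 0.0730 and 0.315 and ratios of 1.06 to 1.09. Each also ended with either of its arrays left out, in fits where that day rests on 1 array and the spread is assumed to be that of the other day. In RNA of whole liver, fewer cells of a type and less RNA per cell cannot be told apart, and the part of the macrophage, pancreas and muscle RNA given above in these ratios was not tested.

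Slc37a4 encodes the translocase that brings glucose 6-phosphate to the G6pc enzyme. Its log2 ratios were -0.36 and 0.18 at day 5 and -0.12 and 0.12 at day 8, negative in replicate 1 and positive in replicate 2 on both days. Its mean over both days was -0.04 (SE 0.11, 95% interval -0.32 to 0.23, adjusted p = 0.796, limma), so the interval leaves out a change of the size seen for G6pc. Its intensities were 31170, 39170, 16650 and 40020 in the Cux2 siRNA pools of day 5 replicates 1 and 2 and day 8 replicates 1 and 2, against 40120, 34570, 18030 and 36770 in the control pools of the same arrays. Both channels of day 8 replicate 1 were low together, the ratio of that array was not unusual, and the groups overlapped.

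Slc2a2 encodes GLUT2, the glucose transporter of the hepatocyte membrane, and was the 1 gene with a pair of probes. The brighter probe gave log2 ratios of 0.07 and 0.52 at day 5 and -0.14 and 0.27 at day 8. Its mean over both days was 0.18 (SE 0.11, 95% interval -0.10 to 0.46, adjusted p = 0.274, limma). The dimmer probe gave -0.21 and 0.27 at day 5 and -0.07 and 0.18 at day 8, with a mean of 0.04 (SE 0.10). On both probes and both days the replicate 2 ratio was the higher one, and neither probe passed. Intensities of the brighter probe ran from 35460 to 48270 in the Cux2 siRNA pools and from 33770 to 39770 in the control pools, which overlap.

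**Figure D2:**
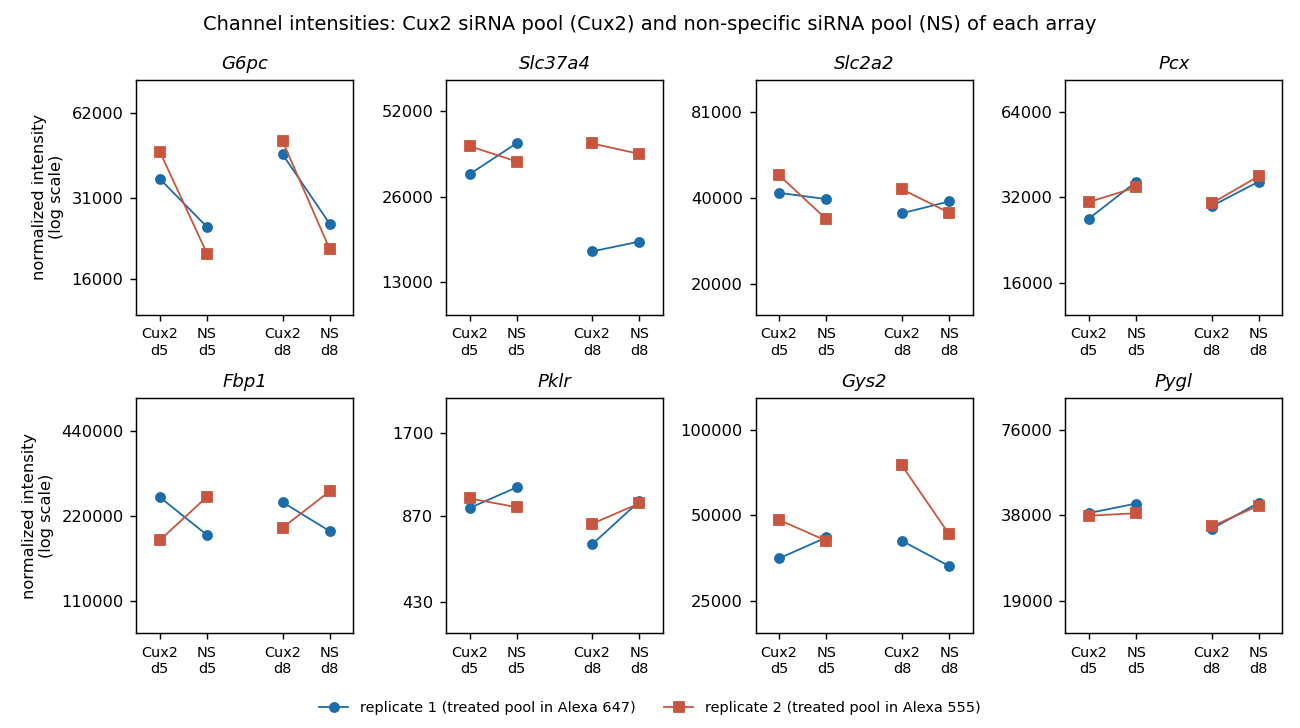
Normalized intensity (log scale, arbitrary units) of each of the 8 genes in the Cux2 siRNA pool (Cux2) and the non-specific siRNA pool (NS) of each array, at day 5 (d5) and day 8 (d8). A line joins the 2 channels of 1 array. G6pc readings lie between 36250 and 49290 in the Cux2 siRNA pools and between 19750 and 25140 in the control pools, and both Slc37a4 readings of day 8 replicate 1 are low.

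Pcx encodes pyruvate carboxylase, which makes oxaloacetate from pyruvate in mitochondria and opens gluconeogenesis from lactate and alanine. Both annotated starts are shown, as Pcx was the gene that fell. They lie on the plus strand of chromosome 19 in GRCm38.p6, the first window at chr19:4510222-4510471 and the second at chr19:4594069-4594318.

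Pcx, first start: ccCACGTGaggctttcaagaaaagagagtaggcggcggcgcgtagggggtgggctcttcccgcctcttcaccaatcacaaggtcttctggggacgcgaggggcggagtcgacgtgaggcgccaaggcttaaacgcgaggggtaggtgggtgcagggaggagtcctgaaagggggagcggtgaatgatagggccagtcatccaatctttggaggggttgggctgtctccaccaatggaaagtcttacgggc

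Pcx, second start: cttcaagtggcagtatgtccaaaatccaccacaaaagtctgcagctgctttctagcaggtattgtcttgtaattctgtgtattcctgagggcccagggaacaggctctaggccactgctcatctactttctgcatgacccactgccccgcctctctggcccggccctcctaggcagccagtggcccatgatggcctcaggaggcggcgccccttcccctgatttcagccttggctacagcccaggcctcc

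The first window held 1 match, CACGTG with its first base at -248, and the second held none of the motifs searched.

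At day 5 the intensity of Pcx was 26910 and 30790 in the Cux2 siRNA pools, against 36270 and 34670 in the control pools. At day 8 it was 29790 and 30440 in the Cux2 siRNA pools, against 36350 and 38030 in the control pools. All 4 Cux2 siRNA readings were below all 4 control readings, again with 2 control pools and no count of such separation over all genes. The log2 ratios were -0.43 and -0.17 at day 5 and -0.29 and -0.32 at day 8. The day means were -0.30 at day 5 (SE 0.09, adjusted p = 0.0847, limma) and -0.30 at day 8 (SE 0.09, adjusted p = 0.0896, limma), and neither passed alone. Over both days Pcx fell by 0.30 (SE 0.06, 95% interval -0.46 to -0.14, adjusted p = 0.0239, limma), to 81.1% of the control level. The ratio averaged -0.36 in replicate 1 and -0.25 in replicate 2.

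The Pcx call was a narrow one. Leaving out day 5 replicate 2 kept it (-0.37, adjusted p = 0.0413). It ended on leaving out day 5 replicate 1 (-0.24, adjusted p = 0.0921), day 8 replicate 1 (-0.31, adjusted p = 0.0751) or day 8 replicate 2 (-0.29, adjusted p = 0.0951). It also ended with the scanner's processed signals (-0.29, adjusted p = 0.0949), with the authors' deposited log10 ratios (-0.29, adjusted p = 0.0948), without background subtraction (-0.24, adjusted p = 0.0696) and with median centring (-0.30, adjusted p = 0.712). The ratio stayed below 0 in all 13 other settings run.

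Fbp1 encodes the hepatic fructose bisphosphatase, which takes the phosphate off fructose bisphosphate late in gluconeogenesis. Its intensities were 256700, 180800, 246500 and 200200 in the Cux2 siRNA pools of day 5 replicates 1 and 2 and day 8 replicates 1 and 2, against 188700, 257800, 194700 and 269300 in the control pools. The channel in Alexa 647 was the brighter one on every array. The log2 ratios were 0.44 and -0.51 at day 5 and 0.34 and -0.43 at day 8, positive in replicate 1 and negative in replicate 2. Their mean was -0.04 (SE 0.20, 95% interval -0.57 to 0.49, adjusted p = 0.912, limma), so changes of up to 0.49 upward or 0.57 downward are within the interval.

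This pattern of Fbp1 was shared by the brightest genes of the arrays. Among the 120 genes tested with a mean log2 intensity of 17 or more, where Fbp1 stood at 17.76, the replicate 2 ratio minus the replicate 1 ratio had a median of -0.88 at day 5 and -0.98 at day 8. For Fbp1 it was -0.96 and -0.77. Among the 1100 genes from 14 to 16, where G6pc, Slc37a4, Slc2a2, Pcx, Gys2 and Pygl lay, the medians were 0.04 on both days. In that range Pcx differed by 0.26 at day 5 and by -0.03 at day 8 and Pygl by 0.08 and 0.06, while G6pc (0.63 and 0.45), Slc37a4 (0.54 and 0.24), Slc2a2 (0.44 and 0.41) and Gys2 (0.49 and 0.51) were higher in replicate 2 on both days. Dye orientation, replicate number and possibly the control pool cannot be told apart in these 4 differences.

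**Figure D3:**
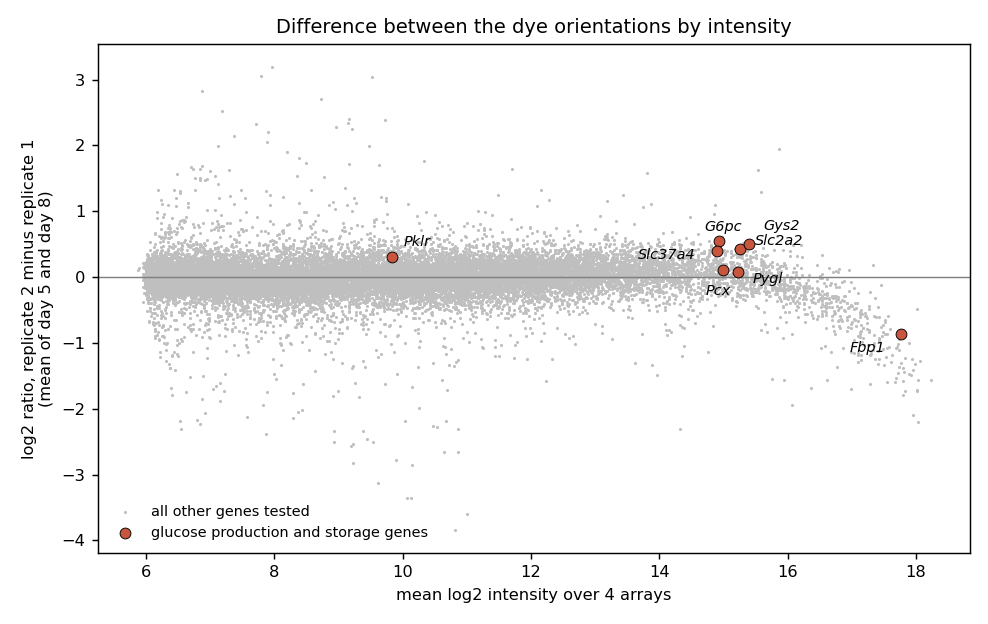
Difference in log2 ratio between replicate 2 and replicate 1, averaged over day 5 and day 8, against the mean log2 intensity over the 4 arrays. Grey points are all genes tested and red points the 8 genes described. Genes above a log2 intensity of 16 bend downward, Fbp1 among them, while G6pc, Gys2, Slc2a2 and Slc37a4 lie above 0.

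Pklr encodes the pyruvate kinase of liver and red cells, the last step of glycolysis. Its intensities were 924.3, 999.5, 688.7 and 814 in the Cux2 siRNA pools of day 5 replicates 1 and 2 and day 8 replicates 1 and 2, against 1094, 930.9, 977.8 and 960.6 in the control pools. The reading of the Cux2 siRNA pool in day 5 replicate 1 and both of day 8 were below all control readings, and that of day 5 replicate 2 lay among them. The log2 ratios were -0.24 and 0.10 at day 5 and -0.51 and -0.24 at day 8. The mean was -0.07 at day 5 (SE 0.12, adjusted p = 0.741, limma) and -0.37 at day 8 (SE 0.12, 95% interval -0.68 to -0.06, adjusted p = 0.110, limma), and -0.22 over both days (SE 0.08, adjusted p = 0.114, limma). Day 8 minus day 5 was -0.30, with an interval from -0.74 to 0.14. Red cell markers, which bear on a gene that red cells also use, were 1 rise (Alas2), 0 falls and 1 not passed of 2 measured over both days, with sums of 76580 to 187800 in Cux2 siRNA pools and 127800 to 179200 in control pools, and their part in the Pklr ratios was not tested.

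Gys2 encodes the glycogen synthase of liver. Its intensities were 35280 and 48140 in the Cux2 siRNA pools of day 5, against 41770 and 40660 in the control pools, and 40660 and 74990 in those of day 8, against 33090 and 42850 in the control pools. The log2 ratios were -0.24 and 0.24 at day 5, which cancel, and 0.30 and 0.81 at day 8, both positive, and the readings of the groups overlapped. The day 5 interval ran from -0.45 to 0.45 (adjusted p = 1.00, limma). The day 8 mean was 0.55 (SE 0.17, 95% interval 0.10 to 1.01, 1.47-fold, adjusted p = 0.107, limma), and over both days it was 0.28 (SE 0.12, adjusted p = 0.161, limma). Gys2 had the largest difference between days among the 8 genes, 0.55 higher at day 8 (SE 0.25, 95% interval -0.09 to 1.19, unadjusted p = 0.0772, limma), and it did not pass.

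Pygl encodes the liver glycogen phosphorylase, which frees glucose units from glycogen. Its log2 ratios were -0.11 and -0.03 at day 5 and -0.31 and -0.25 at day 8, below 0 on all 4 arrays and close between the replicates of each day. Intensities were 38740, 37910, 34050 and 34750 in the Cux2 siRNA pools of day 5 replicates 1 and 2 and day 8 replicates 1 and 2, against 41840, 38670, 42150 and 41180 in the control pools. The highest Cux2 siRNA reading, 38740, lay just above the lowest control reading, 38670, so the groups overlapped. The mean was -0.07 at day 5 (SE 0.07, adjusted p = 0.548, limma) and -0.28 at day 8 (SE 0.07, adjusted p = 0.0646, limma). Over both days it was -0.17 (SE 0.05, 95% interval -0.30 to -0.05, adjusted p = 0.0542, limma), which missed the threshold by a small margin. It passed in 3 of 13 other settings at the same ratio, among them no filter on dim probes (adjusted p = 0.0491) and with the mean of all probes of a gene (adjusted p = 0.0494).

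The other genes of these pathways, 141 in lists by role, were measured in 131 cases. Over both days 19 of the 131 rose (14.5%), 30 fell (22.9%) and 82 did not pass, beside 14.8% and 16.3% of all genes tested, and their median log2 ratio was -0.02. The lists give the surroundings of each of the genes above. Values are log2 ratios over both days, and every one of these calls ended with median centring in place of loess. Each call named below that ended with the scanner's processed signals ended with the authors' deposited ratios too.

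**Figure D4:**
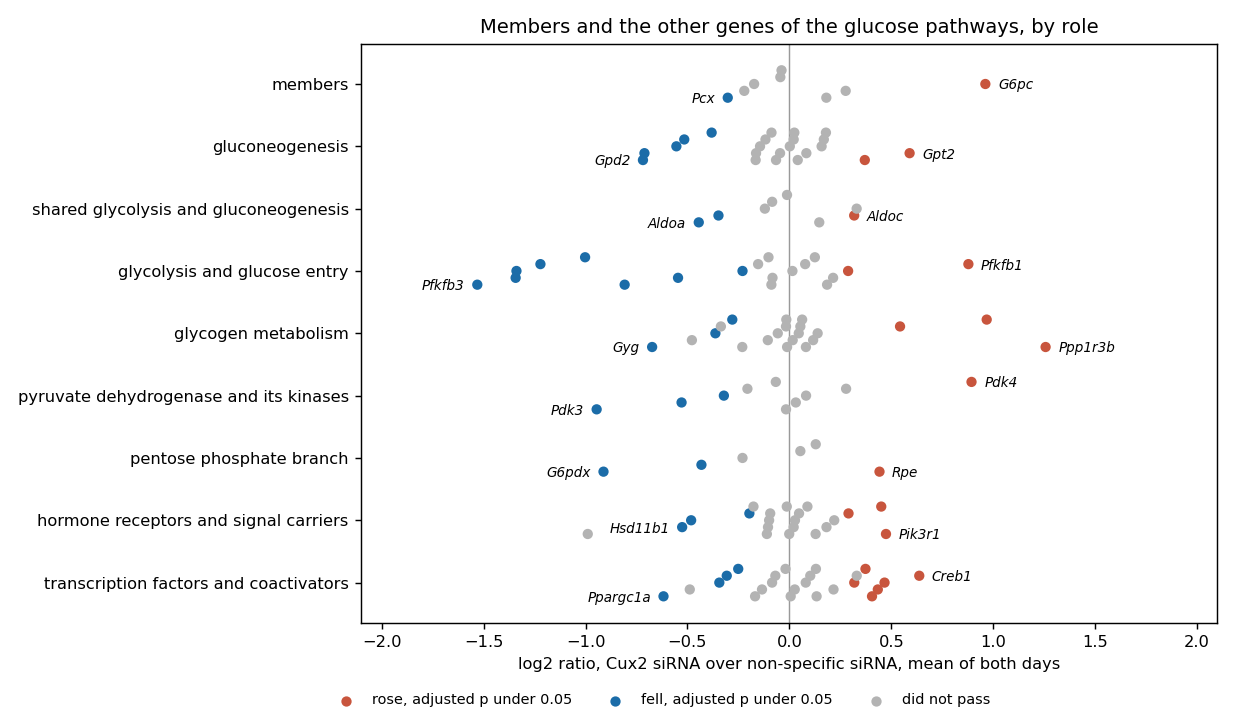
Log2 ratio of Cux2 siRNA over non-specific siRNA, mean of both days, for the 8 measured genes (top row, members) and the other genes of the glucose pathways by role. Red points rose and blue points fell at an adjusted p under 0.05, grey points did not pass, and the names mark the lowest and the highest gene that passed in each row. G6pc stands at 0.96 and Pcx at -0.30 in the top row, and the rows below reach from Pfkfb3 at -1.53 to Ppp1r3b at 1.26.

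Beside G6pc, Pcx and Fbp1, the gluconeogenesis list had 2 rises, 5 falls and 15 genes that did not pass of 22. Gpt2, an alanine aminotransferase that turns alanine into pyruvate, rose by 0.59 (SE 0.11). Slc25a13, a carrier of aspartate and glutamate across the mitochondrial membrane, rose by 0.37 (SE 0.08). Its highest ratio, 0.66, came from day 8 replicate 2. Both of its channels were low there, at 18060 and 11450, against 22430 to 29880 on the other arrays. Dlat, Nr3c1 and Foxa1, given below, were also low in both channels of that array. Sds, the serine dehydratase that makes pyruvate from serine, fell by 0.71 (SE 0.05). Its log2 ratio was -0.97 at day 5 and -0.45 at day 8. That difference of 0.52 (95% interval 0.23 to 0.80) did not pass after adjustment. The glycerol phosphate dehydrogenases Gpd1 and Gpd2, through which glycerol enters the pathway, fell by 0.55 (SE 0.07) and 0.72 (SE 0.05). The relatives of the 9 genes did not pass: Pck2, the mitochondrial phosphoenolpyruvate carboxykinase (-0.14, adjusted p = 0.0966), Fbp2, the muscle fructose bisphosphatase (0.16, adjusted p = 0.0750), and G6pc3, the ubiquitous glucose-6-phosphatase (0.02, adjusted p = 0.747), all by limma. So G6pc rose while its relative G6pc3 had a 95% interval from -0.10 to 0.15 by the same fit. The Fbp2 readings, 72.3 to 93.7, were close to the dim end of the arrays. The Slc25a13 call ended on leaving out replicate 2 of day 5 (0.30, adjusted p = 0.119) or of day 8 (0.29, adjusted p = 0.106), without background subtraction (0.41, adjusted p = 0.0604) and with the scanner's signals (0.39, adjusted p = 0.0599), and the Gpt2 call on leaving out day 8 replicate 1 (0.52, adjusted p = 0.0583).

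Beside Pklr, the list of glycolysis and glucose entry had 2 rises, 8 falls and 9 genes that did not pass of 19. Pfkfb1 rose by 0.88 (SE 0.07, adjusted p = 0.00272, limma), and the glucose transporter Slc2a1 rose by 0.29 (SE 0.05). Pfkfb1 encodes the liver form of the enzyme that both makes and breaks down a regulatory fructose bisphosphate, other than the Fbp1 substrate. That regulator switches between glycolysis and gluconeogenesis. Gckr, a regulator of glucose entry into glycolysis in liver, had -0.10 (adjusted p = 0.210), and the liver phosphofructokinase Pfkl 0.21 (adjusted p = 0.0591), which passed with the scanner's signals (0.32, adjusted p = 0.0410). The falls were led by Pfkfb3 (-1.53, SE 0.23), Pkm (-1.34, SE 0.09) and Hk3 (-1.34, SE 0.16), forms of glycolytic enzymes used mainly outside hepatocytes. Pfkfb3 did not pass without background subtraction (-1.24, adjusted p = 0.0501) and stood at -0.81 with the mean of its probes, and Hk3 stood at -0.86 without background subtraction. Macrophage markers were lower in the same pools, as given above, and their part in these falls was not tested. The Slc2a1 call ended with any 1 array left out (adjusted p = 0.0504 to 0.0849). Of the genes shared by glycolysis and gluconeogenesis, 1 rose (Aldoc, 0.32), 2 fell (Aldoa, -0.44, and Eno1, -0.35) and 5 did not pass of 8. The calls of Aldoc (0.25, adjusted p = 0.0932) and Eno1 (-0.28, adjusted p = 0.0654) ended without day 8 replicate 1, as they did without either day 5 array and with the scanner's signals (adjusted p = 0.0506 and 0.0607), and that of Aldoa (-0.40, adjusted p = 0.0522) ended without day 8 replicate 1.

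Beside Gys2 and Pygl, the list of glycogen metabolism had 3 rises, 3 falls and 15 genes that did not pass of 21. The rises were in Ppp1r3b (1.26, SE 0.06, 2.39-fold, adjusted p = 0.00109, limma) and Ppp1r3c (0.97, SE 0.09), which bring protein phosphatase to glycogen where it activates the synthase, and in Nhlrc1 (0.54, SE 0.09), the ubiquitin ligase malin. Ppp1r3b gave 1.39 and 1.15 on the arrays of day 5 and 1.23 and 1.25 on those of day 8, all above 1. The falls were in Gyg, the glycogenin on which glycogen chains begin (-0.67, SE 0.06), Phka2 (-0.36, SE 0.05) and Pgm2, a phosphoglucomutase (-0.28, SE 0.06). Phka2 encodes a regulatory subunit of the liver kinase that acts on the Pygl product. The branching enzyme gene Gbe1 (0.14, adjusted p = 0.262) did not pass, and neither did the forms of synthase and phosphorylase from other tissues, Gys1 (-0.02, adjusted p = 0.870), Pygb (0.02, adjusted p = 0.846) and Pygm (-0.48, adjusted p = 0.112). Readings of Gys1, 74.6 to 85.3, were close to the dim end of the arrays, and those of Pygm ran from 96.2 to 199. Pygm is the muscle form, muscle markers were lower in the same pools, and their part in its ratio was not tested. Without day 8 replicate 2 Pygm passed (-0.72, adjusted p = 0.0337). The Pgm2 call ended without day 5 replicate 1 (-0.26, adjusted p = 0.0982), day 5 replicate 2 (-0.30, adjusted p = 0.0760) or day 8 replicate 2 (-0.24, adjusted p = 0.0960), and with the scanner's signals (-0.24, adjusted p = 0.0819).

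Pyruvate, which Pcx draws towards gluconeogenesis, is otherwise oxidized by pyruvate dehydrogenase. In that list 1 gene rose, 3 fell and 6 did not pass of 10. Pdk4, a kinase that switches the dehydrogenase off and that fasting raises in liver, rose by 0.89 (SE 0.14), while its relatives Pdk3 (-0.95, SE 0.06) and Pdk2 (-0.32, SE 0.08) fell, as did Dlat, a subunit of the complex (-0.53, SE 0.05). The Pdk2 call ended without day 5 replicate 1 (-0.31, adjusted p = 0.128), day 5 replicate 2 (-0.34, adjusted p = 0.112) or day 8 replicate 2 (-0.22, adjusted p = 0.103), without background subtraction (-0.19, adjusted p = 0.0833) and with the scanner's signals (-0.33, adjusted p = 0.0861). Without background subtraction Pdk3 still passed but at -0.41, and with the mean of its probes Dlat stood at -0.90. In the pentose phosphate branch, which draws on the same glucose 6-phosphate as G6pc, 1 rose (Rpe, 0.44), 2 fell and 3 did not pass of 6. G6pdx, the entry enzyme, fell by 0.91 (SE 0.08) and H6pd, its counterpart in the endoplasmic reticulum, by 0.43 (SE 0.08). The H6pd call ended on leaving out replicate 1 of day 5 (-0.44, adjusted p = 0.0684) or replicate 2 (-0.43, adjusted p = 0.0788), without background subtraction (-0.39, adjusted p = 0.0501) and with the scanner's signals (-0.36, adjusted p = 0.0906).

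Among hormone receptors and signal carriers that act on G6pc and its neighbours, 3 rose, 3 fell and 15 did not pass of 21. Pik3r1 (0.47, SE 0.05), Pde3b (0.45, SE 0.08) and Irs1 (0.29, SE 0.05), carriers of the insulin signal, rose. Hsd11b1, which regenerates active glucocorticoid (-0.53, SE 0.09), Prkaa2, a catalytic subunit of the energy sensor AMPK (-0.48, SE 0.09), and Nr3c1, the glucocorticoid receptor (-0.20, SE 0.05), fell. The insulin receptor Insr (-0.01, adjusted p = 0.875) and the glucagon receptor Gcgr (-0.10, adjusted p = 0.249) did not pass, and Irs2 had no probe named through the table. The Insr readings, 75.1 to 85.4, were close to the dim end of the arrays, where a ratio near 0 shows little. Of these calls that of Pik3r1 held with any 1 array left out, whereas that of Nr3c1 ended in each case (adjusted p = 0.110 to 0.156), with the scanner's signals (-0.15, adjusted p = 0.161) and with the mean of its probes (-0.15, adjusted p = 0.0672). The calls of Pde3b (0.38, adjusted p = 0.0576), Irs1 (0.26, adjusted p = 0.0801), Prkaa2 (-0.48, adjusted p = 0.0688) and Hsd11b1 (-0.45, adjusted p = 0.0512) ended without day 8 replicate 2, and each also without at least 1 other array. The Prkaa2 call also ended with the scanner's signals (-0.47, adjusted p = 0.0589). The size of the Irs1 ratio depended on the signal used, at 0.10 without background subtraction and 0.61 with the scanner's signals, and it passed in both.

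Of the transcription factors and coactivators of these pathways 6 rose, 4 fell and 14 did not pass of 24, so that 25% rose and 16.7% fell, beside 14.8% and 16.3% of all genes tested. Creb1, which carries the cAMP signal of glucagon to gluconeogenic genes, rose by 0.64 (SE 0.08, adjusted p = 0.00610, limma), with single-array values of 0.62 and 0.70 at day 5 and 0.43 and 0.80 at day 8. With the mean of its 3 probes in place of the brightest it stood at 0.19 (adjusted p = 0.0405). The pioneer factor Foxa1 rose by 0.47 (SE 0.09) and the hepatocyte factor Onecut1 by 0.43 (SE 0.06). Ppargc1a, a coactivator that raises G6pc and Pck1 in fasting, fell by 0.62 (SE 0.11), so that it and G6pc changed in opposite directions, and Ppargc1b fell by 0.34 (SE 0.08) and Cebpa, an activator of G6pc and Pck1, by 0.31 (SE 0.06). Foxo1, the insulin-restrained activator of G6pc, had 0.13 (adjusted p = 0.106) and passed without background subtraction (0.15, adjusted p = 0.0299), and Mlxipl, the glucose-sensing activator of Pklr, 0.13 (adjusted p = 0.402). The Ppargc1a call passed in 8 of 13 other settings. Beside median centring it ended without day 5 replicate 2 (-0.53, adjusted p = 0.0667), without background subtraction (-0.49, adjusted p = 0.0553), with the scanner's signals (-0.58, adjusted p = 0.0508) and with the authors' deposited ratios (-0.58, adjusted p = 0.0512). Those of Foxa1 (0.43, adjusted p = 0.0802), Cebpa (-0.35, adjusted p = 0.0565) and Ppargc1b (-0.30, adjusted p = 0.118) ended without day 5 replicate 1, and each also without at least 1 other array, without background subtraction (adjusted p = 0.0700, 0.0503 and 0.0733) and with the scanner's signals (adjusted p = 0.0501, 0.0607 and 0.0870). With the mean of its probes Cebpa stood at -0.20.

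**Figure D5:**
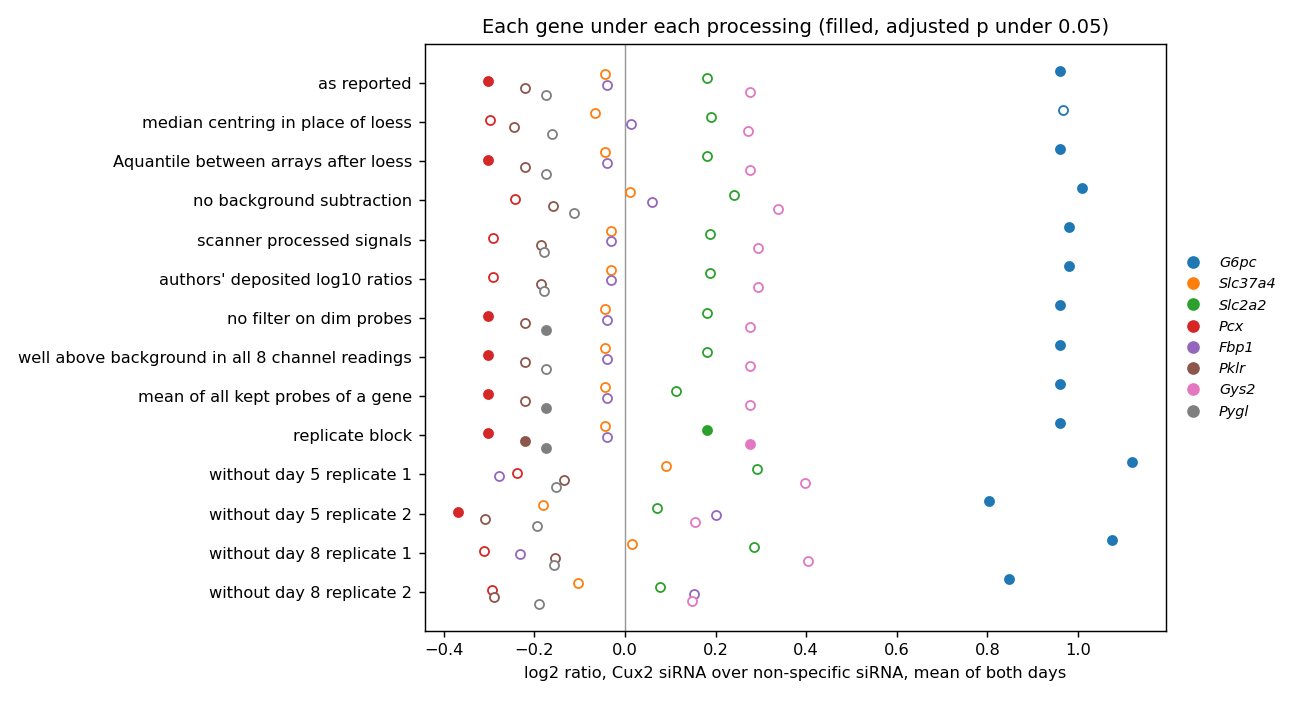
Log2 ratio over both days of the 8 genes as reported and under each other processing, 1 row per setting, with filled points where the adjusted p was under 0.05. G6pc lies between 0.80 and 1.12 in every other setting and is open only with median centring, Pcx lies between -0.37 and -0.24, and Fbp1 and Slc37a4 fall on both sides of 0.

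Over the 13 other settings, G6pc passed in 12 and Pcx in 6. Pygl passed in 3 and stayed between -0.19 and -0.11. Pklr and Gys2 passed in 1 each, and Fbp1 (-0.28 to 0.20) and Slc37a4 (-0.18 to 0.09) passed in 0 and took both signs. Slc2a2 passed in 1 of 14, its second probe being a setting of its own.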

How the data were processed

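Liver RNA was measured on 4 Agilent 2-colour mouse arrays from 1 slide, each with 1 Cux2 siRNA pool and 1 non-specific siRNA pool. The file headers name Feature Extraction 10.7.1.1 as the scanner software. Spot medians and local background medians in each channel, as deposited, were the intensity values analysed. The deposited processed intensity values, background-subtracted and dye-normalized per the file headers, were an alternative, as was the authors' deposited table of log10 ratios. That table equalled the scanner's log10 ratio within 1e-05 for 45018 of 45018 features once the sign was turned on both replicate 2 arrays, so it runs Cux2 siRNA over control; each of its columns had a median of 0. The deposited p-value of each spot entered no test. Promoter sequences are RefSeq's on GRCm38.p6. The array design names another build, per the file headers, so genes are given no coordinates.

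From these deposited values, log2 ratios were derived in R 4.3.3 with limma 3.58.1: normexp with an offset of 50, loess within arrays with the 1639 control spots at weight 0, then the mean per probe over 43379 spots. The arrays had 99 to 204 outlier spots, which were left out, median spot signals of 381.5 to 471.5 and background medians of 306 to 342. Through a RefSeq table of GRCm38.p6 genes, 23374 of 41174 probes (56.8%) were named and 17800 kept their accession. Probes well above background in at least 2 of 8 channel readings were kept (31764), and the brightest stood for a gene. One lmFit and eBayes fit over the 4 ratios, turned by the dyes, gave day 5, day 8, their mean and their difference, with 2 residual and 2.78 prior degrees of freedom. Precision is limited by there being 4 arrays. The fit was also run on simulated data with independent noise on each array. The real arrays share control RNA, so that run does not test the p-values given here. Figures were drawn with matplotlib 3.10.9.

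The genes named are the 9 listed, Cux2, and from each role list up to 3 largest rises and 3 largest falls among genes that passed over both days the same way on 4 arrays, with direct partners of the 9. Some genes of the pathways are not reported here, and the lists and their counts leave them out. The genes and lists were chosen with earlier results of these data known. Alternatives were other normalizations, signals, filters and probe rules, a replicate term, and leaving out each array.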

Additional observations from a re-analysis of the deposited data

Results flagged for a closer look

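Among the genes named, the insulin receptor gene Insr had log2 ratios above 0 on both arrays of day 5 (0.08 and 0.01) and below 0 on both arrays of day 8 (-0.10 and -0.03), and these opposite signs singled it out. Its day 8 ratio lay below its day 5 ratio, at a difference of -0.11 (SE 0.10, 95% interval -0.36 to 0.14, unadjusted p = 0.311, adjusted p = 1.00 by limma), so the difference did not pass. Its intensities were 79.2 to 82.8 in the Cux2 siRNA pools and 75.1 to 85.4 in the control pools, close to the dim end of the arrays. No other gene of the 8 or of their named partners had signs of this kind or passed the test between days. Signs of this kind were not particular to Insr in the lists, however. Khk had 0.16 and 0.41 at day 5 and -0.06 and -0.002 at day 8. Pgam1 had 0.08 and 0.02 at day 5 and -0.08 and -0.07 at day 8. Both were brighter than Insr, and neither passed the test between days.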

How the results depend on the processing

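With the 4 arrays as replicates, 2 of the 8 genes passed over both days, 1 at day 5 and 1 at day 8. Over both days 49 of the 131 other pathway genes passed, beside 3707 rises and 4091 falls among the 25094 genes tested. With median centring in place of loess these counts were 0, 0, 0 and 0, and 269 of all genes passed. The counts over both days, at day 5 and at day 8 were 1, 0 and 0 without background subtraction, with the scanner's processed signals and with the authors' log10 ratios. In these settings 6204, 6655 and 6646 of all genes passed over both days. Leaving out 1 array at a time gave 1 to 2 over both days, 0 to 1 at day 5, 0 to 1 at day 8, and 28 to 37 pathway genes. With no filter on dim probes and with the mean of all probes the count over both days was 3, Pygl being added. With the replicate block 6 passed over both days, 3 at day 5 and 5 at day 8, and 71 pathway genes. Of all 25094 genes tested, 11247 passed over both days in that setting, 8228 at day 5 and 7451 at day 8. The added calls thus came with a rise in calls over the whole array. The genes added over both days were Gys2 (adjusted p = 0.00644), Pklr (0.0134), Slc2a2 (0.0229) and Pygl (0.0260), at unchanged ratios. Of the differences between replicates, those of day 5 and day 8 correlated at 0.5 over genes. The replicate number is also the dye orientation, and the labels tie it to no litter or batch. Values near 0 changed sign. Fbp1 had 0.013 over both days and 0.027 at day 8 with median centring, and 0.061, 0.064 and 0.057 over both days, at day 5 and at day 8 without background subtraction. Gys2 at day 5 had -0.0091, Slc37a4 at day 8 had -0.034 and Insr had 0.0012 with median centring, and Slc37a4 over both days had 0.011 without background subtraction. With 1 array left out, the values ran from -0.28 to 0.20 for Fbp1 over both days, from -0.51 to 0.44 at day 5 and from -0.43 to 0.34 at day 8. They ran from -0.18 to 0.092 for Slc37a4 over both days, from -0.36 to 0.18 at day 5 and from -0.12 to 0.12 at day 8. They ran from -0.24 to 0.24 for Gys2 at day 5, -0.24 to 0.10 for Pklr at day 5 and -0.14 to 0.27 for Slc2a2 at day 8. Over both days they ran from -0.031 to 0.0056 for Insr, -0.016 to 0.049 for Pygb and -0.053 to 0.023 for Gys1. None of these was a call. The cause of these changes was not tested. The median log2 ratio of all genes stayed under 0.05 from 0 in every setting. With 2 arrays per day, a change of the size seen for Pcx lies near what the fit can resolve.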

Other observations

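Beyond the genes named above, 11 other pathway genes passed over both days. Falls in glucose entry and early glycolysis were in hexokinase Hk2 (-1.22, SE 0.13), the fructose transporter Slc2a5 (to 49.9% of the control level, SE 0.07 on the log2 scale), the platelet-type phosphofructokinase Pfkp (-0.81, SE 0.09), Pfkfb4 (-0.55, SE 0.07) and the intracellular transporter Slc2a8 (-0.23, SE 0.06). Ldha, a lactate dehydrogenase subunit (-0.52, SE 0.11), and Got1, the cytosolic aspartate aminotransferase (-0.38, SE 0.10), fell in the gluconeogenesis list. Among transcription factors, the hepatocyte factor Hnf4a (0.37, SE 0.07, but 0.17 with the mean of its probes, where the call ended at adjusted p = 0.0640, limma) rose, as did the lipogenic factor Srebf1 (0.41, SE 0.07) and Mlx (0.32, SE 0.08), the partner of the glucose sensor Mlxipl. Nr4a1, a nuclear receptor that cAMP induces in liver, fell by 0.25 (SE 0.06). Hk2, Slc2a5, Pfkp and Pfkfb4 passed in 12 of 13 other settings, and the remaining 7 genes in 4 to 9. Each of those 7 calls ended with at least 1 array left out (highest adjusted p between 0.0617 for Srebf1 and 0.183 for Slc2a8, limma), and each but Hnf4a also in at least 1 setting of signal or background other than median centring. Without background subtraction the falls were -0.41 for Pfkp (-0.37 with the mean of its probes), -0.30 for Pfkfb4 and -0.16 for Nr4a1, and without day 5 replicate 2 Got1 stood at -0.25. Beside the falls of Hk2 and Pfkp, which many cell types outside the hepatocyte use, adipocyte markers fell in 2 of 3, with summed intensities of 291.4 to 461.8 in Cux2 siRNA pools and 559.2 to 909.5 in control pools, and macrophage markers fell in 6 of 8. The part of these cells in the ratios was not tested.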
